A study of Mus musculus with 6 samples.

Results

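Interferon-inducible GTPases are large and mid-sized GTP-binding proteins that cells make after exposure to interferon. The 9 genes described here belong to 3 families: guanylate-binding proteins (GBP: Gbp2, Gbp3), immunity-related GTPases (IRG: Igtp, Irgm1, Irgm2, Ifi47, Iigp1) and Mx proteins (Mx1, Mx2). All probe sets whose array annotation names exactly 1 gene, and that gene 1 of the 9, were taken, which gave 11 of 45037 non-control probe sets. Gbp2 and Iigp1 had 2 probe sets each and the other 7 genes 1 each. All 11 were measured on every array, and no filter on low values was applied to them.

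The arrays held RNA of macrophages grown from the femoral marrow of vimentin-deficient mice (3 arrays) and of wild-type littermates (3 arrays). Vimentin is the intermediate filament protein of myeloid and mesenchymal cells. Every animal was aged 17 weeks, of C57BL/6 background and fed chow, and all cultures were kept at normal oxygen with supernatant of the cell line CMG14-12, which supplies mouse macrophage colony-stimulating factor. The labels do not describe the vimentin allele, and they name no interferon or other stimulus in either group. They call the 3 samples of a genotype biological replicates without naming animals. The p-values therefore set each group difference against the spread between these samples, as moderated by limma over all probe sets.

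GBP and IRG proteins act inside cells against microbes that live in vacuoles. They gather on the vacuole membrane, and the cell's autophagy conjugation proteins help to place them there. IRG proteins fall into effectors, which attack the vacuole (Iigp1, also called Irga6, and Ifi47, also called Irgd), and regulators, which sit on the host's own membranes and hold the effectors inactive there (Irgm1, Irgm2 and Igtp, also called Irgm3). Mx proteins are dynamin-like GTPases that block viruses, Mx1 in the mouse nucleus and Mx2 in the cytoplasm. Most inbred mouse strains carry defective copies of both Mx genes, and the C57BL/6J reference annotation lists Mx1 and Mx2 as transcribed pseudogenes. Their probe sets therefore report a transcript and not a working protein. GBP and IRG genes are known as strong targets of interferon gamma, Mx genes as targets of type I and type III interferon.

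Promoter windows ran from 250 bases before to 50 bases after a start site annotated in RefSeq (build GRCm38.p6). The set of windows used held 6 of the 9 members, with 2 start sites for Gbp3. It held no window for Iigp1, Mx1 and Mx2. Each was searched on both strands for the interferon-stimulated response element core, written here as GAAA, any 2 bases, GAAA, which STAT and IRF factors bind after type I interferon. The gamma-activated site core, TTCNNNGAA, which reads the same on both strands, was searched as well. The response element core was found in 5 of the 6 members (Gbp2, Gbp3, Igtp, Irgm1 and Irgm2), against 3.99% of 27025 genes with such a window. The gamma-activated site core was found in 2 of the 6, Igtp and Irgm2, against 9.55% of those genes. No window showed an overlap between the 2 kinds of core. The 5 windows with a match are printed because they show where the cores lie in the genes that are described next, and capitals mark the cores.
Igtp, chr11:58199306-58199605, plus strand: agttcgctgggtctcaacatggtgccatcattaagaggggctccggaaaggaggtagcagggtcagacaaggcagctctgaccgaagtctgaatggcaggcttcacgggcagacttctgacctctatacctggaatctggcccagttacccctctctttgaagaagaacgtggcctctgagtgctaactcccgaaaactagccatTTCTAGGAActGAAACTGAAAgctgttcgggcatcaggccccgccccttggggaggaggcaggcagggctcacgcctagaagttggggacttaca
Irgm2, chr11:58214727-58215026, plus strand: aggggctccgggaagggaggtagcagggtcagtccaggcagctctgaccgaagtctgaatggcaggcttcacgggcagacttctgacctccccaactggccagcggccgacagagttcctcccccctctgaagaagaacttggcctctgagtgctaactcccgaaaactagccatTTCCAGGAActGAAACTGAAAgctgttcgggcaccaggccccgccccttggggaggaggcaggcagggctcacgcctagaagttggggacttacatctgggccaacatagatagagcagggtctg
Irgm1, chr11:48871371-48871670, minus strand: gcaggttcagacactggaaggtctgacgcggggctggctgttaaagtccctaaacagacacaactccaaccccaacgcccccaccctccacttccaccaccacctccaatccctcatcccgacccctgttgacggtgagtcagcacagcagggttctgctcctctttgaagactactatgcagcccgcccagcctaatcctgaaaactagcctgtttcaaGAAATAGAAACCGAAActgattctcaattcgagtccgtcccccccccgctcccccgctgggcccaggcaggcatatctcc
Gbp2, chr3:142620413-142620712, plus strand: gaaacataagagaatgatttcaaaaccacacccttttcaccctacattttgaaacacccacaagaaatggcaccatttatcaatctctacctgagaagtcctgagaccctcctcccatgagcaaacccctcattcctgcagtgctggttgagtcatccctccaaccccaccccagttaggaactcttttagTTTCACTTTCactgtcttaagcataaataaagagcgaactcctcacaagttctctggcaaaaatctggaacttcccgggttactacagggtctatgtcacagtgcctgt
Gbp3, chr3:142559794-142560093, plus strand: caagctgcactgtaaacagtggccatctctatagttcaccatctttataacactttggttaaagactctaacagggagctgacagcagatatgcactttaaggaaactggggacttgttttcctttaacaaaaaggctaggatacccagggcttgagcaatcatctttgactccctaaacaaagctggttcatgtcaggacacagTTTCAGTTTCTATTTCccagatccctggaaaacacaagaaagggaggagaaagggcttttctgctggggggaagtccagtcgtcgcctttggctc

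Igtp and Irgm2 are direct neighbours on the reference chromosome 11, and their windows were alike: 247 of 271 aligned positions (91.1%) were identical, with the gamma-activated site core just upstream of the response element core in both. In Irgm1 and in the first window of Gbp3 a pair of response element cores overlapped each other. Ifi47 and the second window of Gbp3 held neither core. A match describes these letters only, and its part in the expression values was not tested.

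**Figure D1:**
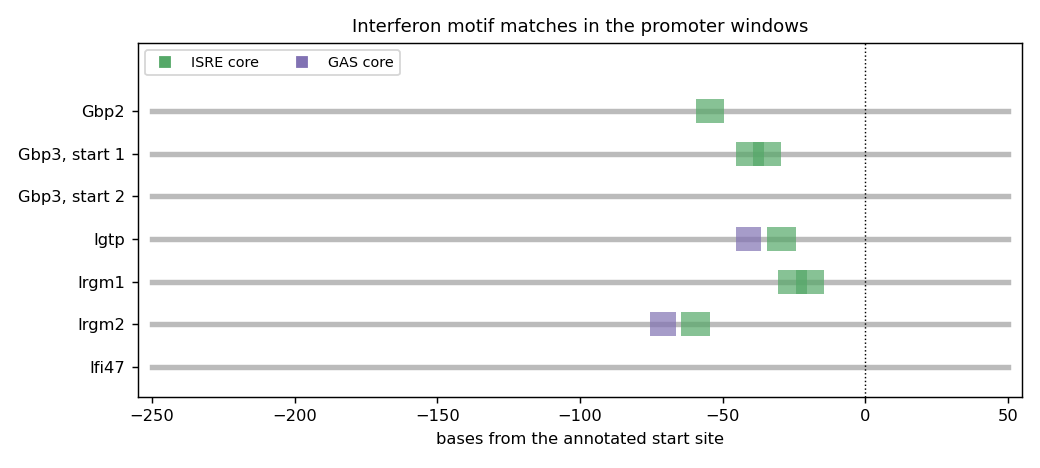
Positions of the interferon-stimulated response element (ISRE) core and the gamma-activated site (GAS) core in the 7 promoter windows, 1 row per window, with the distance from the annotated start site in bases on the x axis. Every match lies upstream of the start site, and the Ifi47 window and the second Gbp3 window hold none.

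Vim itself was low on the vimentin-deficient arrays: its brightest probe set read 8.20, 6.96 and 7.13 there and 13.41, 13.24 and 13.31 on the wild-type arrays. Macrophage markers were bright in both groups. Lyz2 averaged 14.04 ± 0.16 and Cd68 13.62 ± 0.02 in vimentin-deficient cultures, against 14.09 ± 0.04 and 13.73 ± 0.05 in wild-type cultures (log2 values, SD, n = 3). Vimentin-deficient replicate 3 stood apart: across probe sets its correlation with the other 5 arrays was 0.975 to 0.979, while those 5 were no lower than 0.992 with each other. Its MHC class II transcripts were also high, with H2-Eb1 at 12.04 against 7.70 and 8.15 on the other vimentin-deficient arrays and 7.77 to 8.26 on wild-type arrays. The members' results are therefore given with 6 arrays and without vimentin-deficient replicate 3, which leaves 2 arrays against 3.

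All 9 genes had higher means in vimentin-deficient than in wild-type macrophages, in every one of the 11 probe sets. In fold terms the differences of the brightest probe sets ran from 1.22-fold (Mx2) to 2.24-fold (Iigp1), with a median log2 fold change of 0.72, where the median over all 45037 probe sets was -0.01. In 10 of the 11 probe sets all 3 vimentin-deficient arrays lay above all 3 wild-type arrays, against 5.49% of all probe sets. A log2 fold change above 0.5 was reached by 9 of the 11, against 0.786% of all. None passed the threshold with 6 arrays: by limma with Benjamini-Hochberg adjustment over all probe sets, 0 of the 11 had an adjusted p below 0.05, and 0% of all probe sets did so as higher (0.0111% as lower). The adjusted p of the 11 lay between 0.486 and 0.740. At an unadjusted limma p below 0.05, 11 of the 11 were higher, against 2.73% of all probe sets. In RNA of whole cultures, more responding cells and more transcript per cell cannot be told apart.

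Without vimentin-deficient replicate 3, 4 of the 11 probe sets rose (limma adjusted p below 0.05), against 0.695% of all probe sets that rose and 0.488% that fell. These were Irgm1, Ifi47, Igtp and Mx1. The median log2 fold change of the 9 genes was 0.49 in that fit, and the median over all probe sets -0.01. Replicates 1 and 2 both lay above all 3 wild-type arrays in 10 of the 11 probe sets, against 10.8% of all. The 7 probe sets that did not pass had adjusted p between 0.0717 and 0.369. Whether the members' fold changes differ from each other was not tested.

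**Figure D2:**
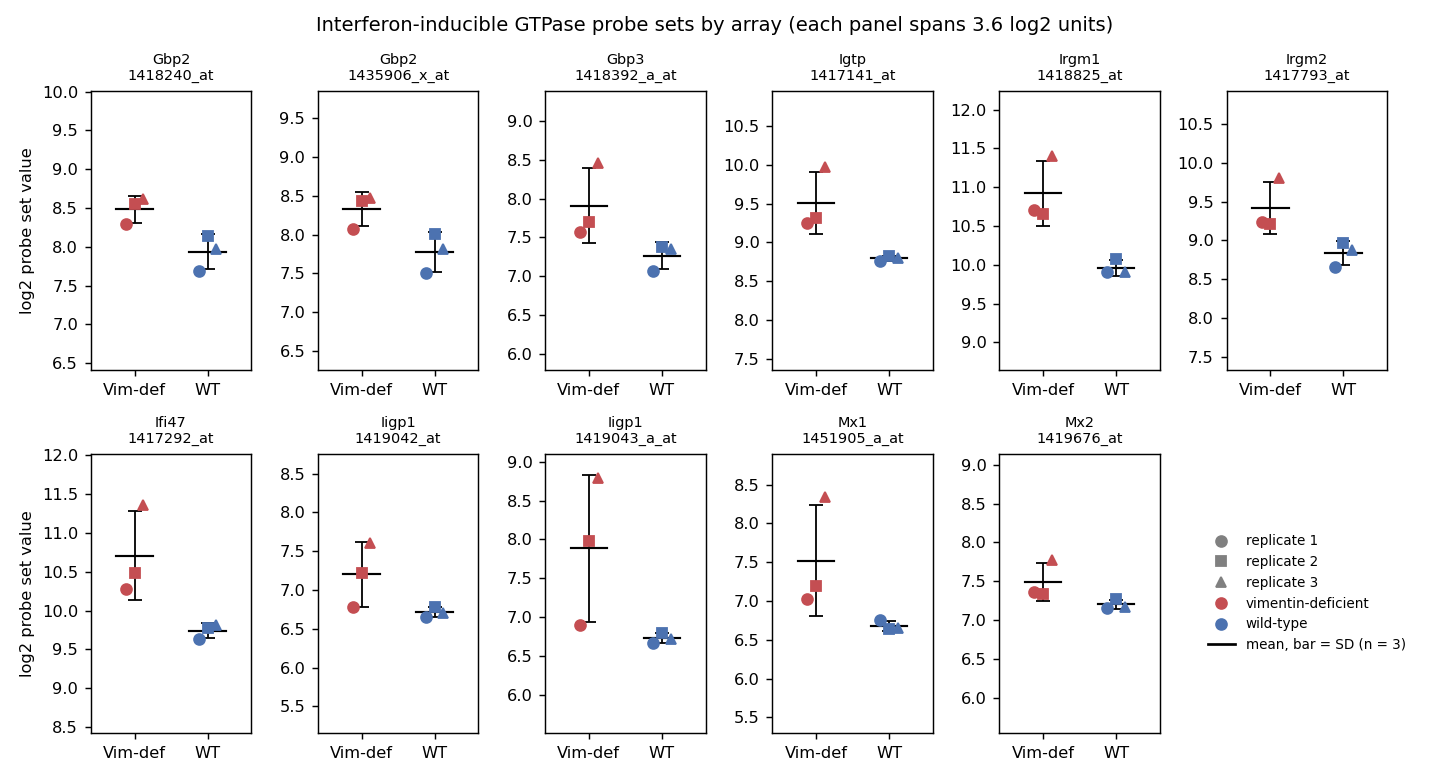
Log2 value of each of the 11 probe sets on the 3 vimentin-deficient arrays (left in each panel) and the 3 wild-type arrays (right), with the mean and SD of each group and marker shapes for the replicate numbers. Replicate 3 is the highest vimentin-deficient array in all 11 panels, and the groups overlap only for the dimmer Iigp1 probe set, 1419042_at.

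Among the IRG regulators, Irgm1 had the largest fold change. Irgm1 read 10.70, 10.65 and 11.40 on the vimentin-deficient arrays and 9.90, 10.08 and 9.90 on the wild-type arrays (log2 values). Replicates 1 and 2 lay close together, replicate 3 higher, and the lowest vimentin-deficient array was 0.57 log2 units above the highest wild-type array. With 6 arrays the log2 fold change was 0.96 (SE 0.20, 1.94-fold, limma adjusted p = 0.486). Without vimentin-deficient replicate 3, Irgm1 rose by 0.72 (SE 0.091, limma adjusted p = 0.00137). Irgm1 keeps effector IRG proteins off host membranes and is needed for macrophage defence against mycobacteria in mice.

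Igtp, a regulator of the same type, was the member with the tightest wild-type values. It read 9.25, 9.31 and 9.97 in vimentin-deficient and 8.75, 8.82 and 8.80 in wild-type macrophages, so the wild-type arrays spanned 0.071 log2 units and the gap between the groups was 0.43. The log2 fold change was 0.72 with 6 arrays (SE 0.18, 1.65-fold, limma adjusted p = 0.593), and Igtp rose by 0.49 without vimentin-deficient replicate 3 (SE 0.079, limma adjusted p = 0.00783).

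Irgm2, whose promoter window is nearly that of Igtp, showed smaller differences and a wider wild-type spread. Irgm2 read 9.24, 9.22 and 9.80 in vimentin-deficient and 8.66, 8.97 and 8.88 in wild-type macrophages. The groups did not overlap, yet the gap of 0.25 between them was less than the wild-type range of 0.30. The log2 fold change was 0.58 (SE 0.17, limma adjusted p = 0.665) with 6 arrays and 0.39 (SE 0.096, limma adjusted p = 0.0840) without vimentin-deficient replicate 3, which did not pass the threshold.

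The effector Ifi47 had a fold change close to that of Irgm1. Ifi47 read 10.28, 10.49 and 11.36 on the vimentin-deficient arrays, and 9.63, 9.77 and 9.81 on the wild-type arrays. All 3 vimentin-deficient values were above the wild-type ones, with replicate 3 the highest by 0.97 log2 units over the mean of the other two. The log2 fold change was 0.97 with 6 arrays (SE 0.26, 1.96-fold, limma adjusted p = 0.595), and Ifi47 rose by 0.65 without vimentin-deficient replicate 3 (SE 0.097, limma adjusted p = 0.00444). Its promoter window held neither core.

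Iigp1, the effector that coats the vacuole of Toxoplasma gondii in mouse cells, had the largest fold change of the brightest probe sets with 6 arrays, and the largest spread among the vimentin-deficient arrays. Its brighter probe set, 1419043_a_at, read 6.90, 7.98 and 8.79 on the vimentin-deficient arrays and 6.66, 6.79 and 6.72 on the wild-type arrays. Replicate 1 thus lay 0.11 above the highest wild-type array while replicates 2 and 3 lay 1.26 and 2.06 above the wild-type mean. The log2 fold change was 1.16 (SE 0.41, SD 0.95 among vimentin-deficient arrays, limma adjusted p = 0.718) with 6 arrays and 0.72 (SE 0.20, limma adjusted p = 0.155) without vimentin-deficient replicate 3, close to the 0.72 of Irgm1 there. The dimmer probe set, 1419042_at, gave less: 6.78, 7.22 and 7.61 in vimentin-deficient and 6.66, 6.79 and 6.70 in wild-type macrophages. There replicate 1 fell just below the highest wild-type array, so the groups overlapped, and the log2 fold change was 0.49 (SE 0.18) with 6 arrays and 0.28 (SE 0.096) without vimentin-deficient replicate 3. The wild-type means of both Iigp1 probe sets and of Mx1 lay below 6.93, the 40th percentile of all probe set means, so that these probe sets exceeded it on average only through the vimentin-deficient arrays. No detection calls were used, and fold changes of dim probe sets can be compressed.

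Gbp2 was the member in which vimentin-deficient replicate 3 differed least from replicates 1 and 2. Gbp2 is a guanylate-binding protein that assembles on pathogen vacuoles. Its brighter probe set read 8.29, 8.55 and 8.61 in vimentin-deficient and 7.69, 8.14 and 7.97 in wild-type macrophages, and replicate 3 exceeded the average of replicates 1 and 2 by 0.19. The gap between the groups was 0.15, against a wild-type range of 0.45. The log2 fold change was 0.55 (SE 0.13, 1.47-fold, limma adjusted p = 0.575) with 6 arrays and 0.49 (SE 0.12, limma adjusted p = 0.0752) without vimentin-deficient replicate 3. The second Gbp2 probe set, of the type whose probes can match related transcripts, gave 0.55 (SE 0.16) and 0.48 (SE 0.13).

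Gbp3, of the same family and on the same chromosome with Gbp2b between, had vimentin-deficient replicate 3 well above the other two arrays. It read 7.57, 7.69 and 8.46 in vimentin-deficient and 7.07, 7.38 and 7.35 in wild-type macrophages, with replicate 3 at 0.83 above the mean of the other two. The groups did not overlap. Its log2 fold change was 0.64 (SE 0.22, limma adjusted p = 0.718) with 6 arrays and 0.37 (SE 0.087, limma adjusted p = 0.0717) without vimentin-deficient replicate 3.

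Both Mx transcripts had higher means, Mx1 with the larger fold change. Mx1 read 7.02, 7.19 and 8.34 in vimentin-deficient and 6.75, 6.63 and 6.65 in wild-type macrophages. Replicate 3 lay 1.24 above the mean of replicates 1 and 2, and all 3 were above the wild-type arrays. The log2 fold change was 0.84 (SE 0.31, 1.79-fold, limma adjusted p = 0.721) with 6 arrays, and without vimentin-deficient replicate 3 Mx1 rose by 0.43 (SE 0.061, limma adjusted p = 0.00311). Mx2 read 7.36, 7.33 and 7.78 in vimentin-deficient and 7.16, 7.27 and 7.17 in wild-type macrophages. This was the smallest difference of the 9 genes, 0.29 (SE 0.12, limma adjusted p = 0.740) with 6 arrays and 0.15 (SE 0.058, limma adjusted p = 0.369) without vimentin-deficient replicate 3, with a gap of 0.057 between the groups.

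**Figure D3:**
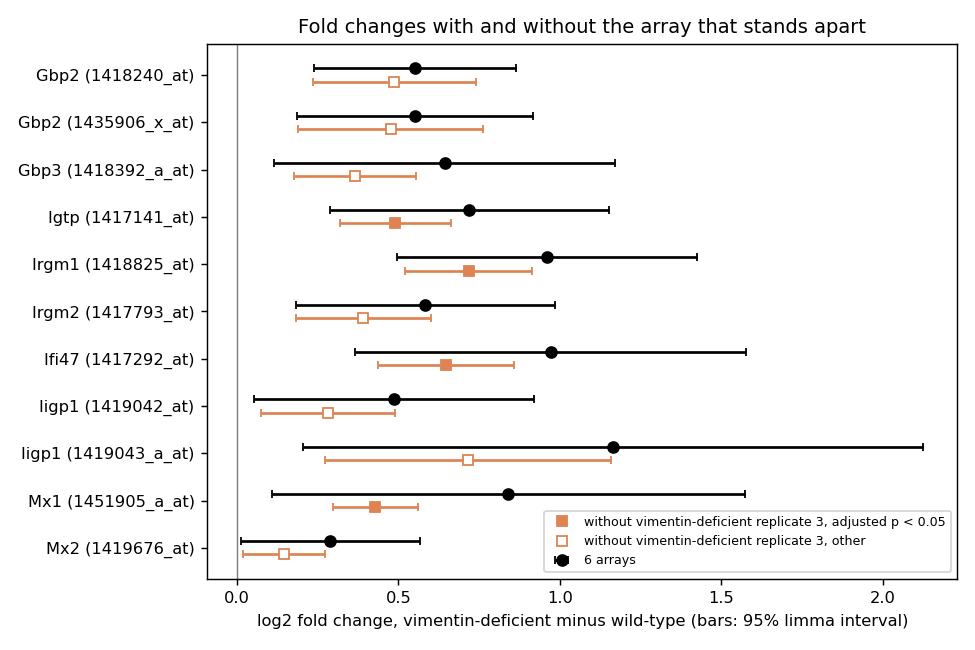
Log2 fold change (vimentin-deficient minus wild-type) of the 11 probe sets with 95% limma intervals that are not adjusted for the number of tests, with 6 arrays (black circles) and without vimentin-deficient replicate 3 (orange squares, filled where the adjusted p was below 0.05). All 22 values are above 0, every value is smaller without that array, and the filled squares are Igtp, Irgm1, Ifi47 and Mx1.

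The calls depended on which array was left out. Irgm1, Ifi47, Igtp and Mx1 passed the threshold without vimentin-deficient replicate 3, and 0 of the 11 probe sets passed without any other single array. In those other fits 3 of all 45037 probe sets passed without vimentin-deficient replicate 1 and 0 without each of the others, so that a count of 0 among the members matches the whole array there. Over the 21 alternatives run, their adjusted p ranged from 0.000169 to 0.994 for Irgm1, from 0.000928 to 0.994 for Ifi47, from 0.00347 to 0.994 for Igtp and from 0.000219 to 0.994 for Mx1. Averaged over the 9 genes, the deviation from the wild-type mean was 0.39, 0.59 and 1.27 log2 units for replicates 1, 2 and 3 of the vimentin-deficient cultures, and -0.09, 0.08 and 0.01 for replicates 1, 2 and 3 of the wild-type cultures. The spread among vimentin-deficient arrays exceeded that among wild-type arrays in 9 of the 11 probe sets, the exceptions being both probe sets of Gbp2. Wild-type replicate 1 was the lowest wild-type array in 9 of the 11.

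Genes outside the 9 whose values followed the same pattern were sought as those with the smallest mean absolute difference, over the 6 arrays, from the mean profile of the members, both as deviations from the wild-type mean. With 6 arrays, among 13436 genes with a mean above the 40th percentile the 5 nearest were Ccl5 (0.040 log2 units), which encodes a chemokine, Ifih1 (0.059), which encodes the RNA sensor MDA5, Samd9l (0.072), Trim34a (0.072) and Stat2 (0.072), which encodes a transducer of the type I interferon signal. The median gene differed by 0.423. Of the members themselves, Igtp lay nearest to the mean profile (0.057) and Iigp1 farthest (0.291).

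Related GTPases showed both kinds of value. Of 4 other measured GBP genes all 4 had higher means in both fits, with a median log2 fold change of 0.17 with 6 arrays and 0.34 without vimentin-deficient replicate 3, and 1 rose in the second fit. This was Gbp6, with 7.30, 7.29 and 8.76 in vimentin-deficient and 6.74, 6.93 and 6.88 in wild-type macrophages. Its log2 fold change was 0.94 (SE 0.37, limma adjusted p = 0.733) with 6 arrays and 0.45 (SE 0.061, limma adjusted p = 0.00240) without vimentin-deficient replicate 3. Gbp7 read 8.54, 8.37 and 7.72 in vimentin-deficient and 7.88, 8.22 and 8.20 in wild-type macrophages, so its replicate 3 was below all wild-type arrays, and its log2 fold change was 0.11 (SE 0.21) with 6 arrays and 0.36 (SE 0.10) without that array. Gbp8 had 0.22 (SE 0.12) with 6 arrays and 0.32 (SE 0.10) without that array, and Gbp2b was dim, with 0.036 (SE 0.047) and 0.062 (SE 0.050). Of 4 other measured IRG genes, listed by family and not by response to interferon, 1 was higher in both fits and 0 passed. This was Gm4951, at 0.86 (SE 0.40, limma adjusted p = 0.745) with 6 arrays and 0.35 (SE 0.10, limma adjusted p = 0.178) without vimentin-deficient replicate 3. The others had -0.12 (Irgq), -0.04 (Irgc1) and -0.01 (Gm12185) with 6 arrays. Tgtp1 and Tgtp2, also IRG genes, share a probe set and were therefore not among the 4. That probe set had 1.54 (SE 0.26, limma adjusted p = 0.390) with 6 arrays. It had 1.21 (SE 0.098, limma adjusted p = 3.74e-05) without vimentin-deficient replicate 3. Of 13 dynamin-family GTPases that cells make without interferon 1 was higher and 12 lower with 6 arrays (median -0.06), and 0 passed in either fit. The endosomal gene Ehd4 had -0.37 (SE 0.11) with 6 arrays and -0.31 (SE 0.095) without that array, and the mitochondrial fusion gene Mfn2 -0.13 (SE 0.076) and -0.12 (SE 0.084).

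Transcripts of the signalling chain went both ways. Of 19 genes for interferon receptors, kinases and factors 9 were higher with 6 arrays (median log2 fold change -0.01) and 7 without vimentin-deficient replicate 3 (median -0.03). None passed with 6 arrays and 3 rose in the second fit. Usp18, a brake on type I signalling, had 1.99 (SE 0.27, limma adjusted p = 0.293) with 6 arrays and 1.67 (SE 0.13, limma adjusted p = 2.38e-05) without vimentin-deficient replicate 3. Irf7, an amplifier of the response, had 1.37 (SE 0.21) with 6 arrays and 1.11 (SE 0.090) without that array, and Stat2 0.80 (SE 0.19) and 0.56 (SE 0.086). Irf9, a DNA-binding factor of the type I interferon response, had 0.48 (SE 0.14) with 6 arrays and 0.32 (SE 0.092) without that array, and did not pass in either fit. Irf1, a factor that drives GBP and IRG genes after interferon gamma, read 9.24, 9.51 and 10.18 in vimentin-deficient and 9.35, 9.69 and 9.61 in wild-type macrophages, with overlap between the groups. The receptor gene Ifnar2 had -0.23 (SE 0.088) with 6 arrays and -0.27 (SE 0.089) without that array. Of 10 measured interferon genes 3 were higher and 7 lower with 6 arrays (median -0.04), and 0 passed in either fit. Ifng read 6.00, 6.07 and 6.01 in vimentin-deficient and 5.97, 5.97 and 6.00 in wild-type cultures. Ifnb1 read 6.26, 6.31 and 6.19 in vimentin-deficient and 6.40, 6.36 and 6.33 in wild-type cultures. Ifnab averaged 6.67 in vimentin-deficient and 6.78 in wild-type cultures. Ifng, Ifnb1 and Ifnab lay below the 40th percentile of probe set means, while 3 of the 10 lay above it. Among those 3 was Ifna9, with -0.07 (SE 0.070) with 6 arrays and -0.03 (SE 0.072) without vimentin-deficient replicate 3.

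Response genes of other families were taken as 2 lists, by the interferon they are usually assigned to. Of 20 measured type I response genes all 20 had higher means with 6 arrays (median 1.12) and 19 without vimentin-deficient replicate 3 (median 0.82). None of the 20 passed with 6 arrays and 19 rose without that array, among them Ifi35 (0.80, SE 0.084), Oas1a (0.84, SE 0.084), Oas3 (1.31, SE 0.11), Ifi27l2a (0.75, SE 0.073) and Bst2 (0.59, SE 0.091). Of 20 genes usually assigned to interferon gamma 16 were higher with 6 arrays (median 0.26), and 12 without vimentin-deficient replicate 3 (median 0.05). None of these passed with 6 arrays and 3 rose without that array. The peptide transporter gene Tap1 had 0.35 (SE 0.089) with 6 arrays and 0.41 (SE 0.084) without that array, Gch1, which encodes an enzyme of biopterin synthesis, 0.37 (SE 0.10) and 0.45 (SE 0.089), and the chemokine gene Cxcl10 0.65 (SE 0.20) and 0.39 (SE 0.052). Psmb8, an immunoproteasome subunit gene, had the smallest p of the list with 6 arrays, 0.32 (SE 0.083, limma adjusted p = 0.593), and 0.32 (SE 0.089, limma adjusted p = 0.144) without that array. Several genes answer to both interferons, and the difference between the lists was not tested. The members' median lay between the medians of these lists in both fits.

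**Figure D4:**
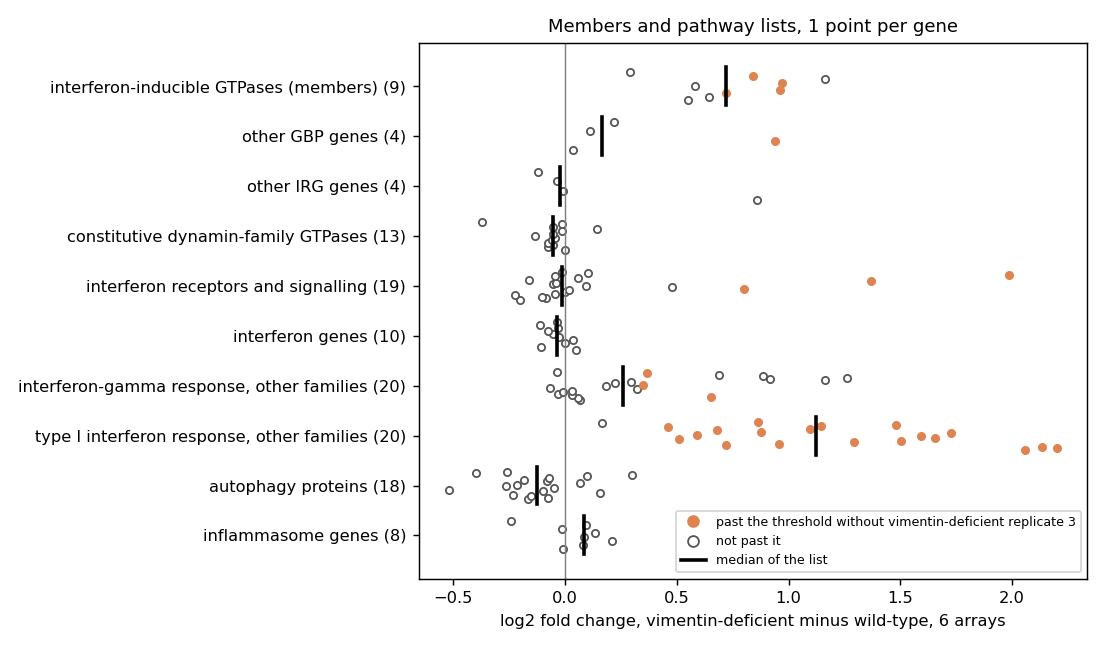
Log2 fold change with 6 arrays (vimentin-deficient minus wild-type) of the 9 members and of the genes of each pathway list, 1 point per gene at its brightest probe set, with the number of genes in brackets and a bar at the median. Filled points passed the threshold without vimentin-deficient replicate 3, and most of them are type I interferon response genes (19 of 20). The others are 4 of 9 members, 3 of 19 signalling genes, 3 of 20 interferon-gamma response genes and 1 of 4 other GBP genes.

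Genes that act with these GTPases in autophagy and cell death passed the threshold in neither fit. Of 18 autophagy genes tied to the placing of IRG and GBP proteins 4 were higher and 14 lower with 6 arrays (median -0.12). Trim21, an antibody receptor and ubiquitin ligase, had 0.30 (SE 0.076) with 6 arrays and 0.29 (SE 0.085) without vimentin-deficient replicate 3. Gabarapl1, a ubiquitin-like autophagy protein gene, had -0.52 (SE 0.15) and -0.58 (SE 0.14), and Atg12 -0.24 (SE 0.076) and -0.23 (SE 0.085), in the same order of fits. Of 8 inflammasome genes 5 were higher with 6 arrays (median 0.08). Gsdmd, which encodes the pore protein of pyroptosis, had 0.21 (SE 0.096) with 6 arrays and 0.13 (SE 0.085) without that array.

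Markers of macrophages and of other cell types from marrow were summarised as the mean log2 value of each list on each array, with 0 past the threshold in every list with 6 arrays. Of 12 T cell and NK cell markers 3 were higher, with 0 passed in either fit, and the list mean ran from 7.29 to 7.43 on vimentin-deficient and from 7.38 to 7.44 on wild-type arrays. Cd4 had a log2 fold change of -0.33 (SE 0.082) with 6 arrays, and the brightest of the list, Zap70 and Cd3e, -0.08 (SE 0.10) and 0.01 (SE 0.081). Cd3d read 6.45 to 6.58 in vimentin-deficient and 6.44 to 6.58 in wild-type cultures. Of 7 B cell markers 0 were higher, and 2 fell without vimentin-deficient replicate 3, Ighm (-0.96, SE 0.096) and Cd22 (-0.50, SE 0.086), with list means of 7.24 to 7.49 in vimentin-deficient and 7.61 to 7.67 in wild-type cultures. Of 9 dendritic cell markers 1 rose and 1 fell without that array, Bst2, which is itself induced by interferon, and Itgax (-1.01, SE 0.089), with list means of 7.79 to 7.87 in vimentin-deficient and 7.86 to 7.89 in wild-type cultures. Of 8 neutrophil markers 0 were higher, with list means of 7.14 to 7.24 in vimentin-deficient and 7.22 to 7.26 in wild-type cultures. S100a8 had -0.14 (SE 0.069) with 6 arrays, and the brightest, Elane and Mpo, -0.07 (SE 0.084) and -0.03 (SE 0.072). Fibroblast and stromal markers (4 of 9 higher) had list means of 7.37 to 7.47 in vimentin-deficient and 7.39 to 7.44 in wild-type cultures. Col1a2 had -0.10 (SE 0.046) with 6 arrays, and the brightest, Pdgfrb and Col1a1, 0.04 (SE 0.074) and -0.06 (SE 0.063). Erythroid markers (1 of 4 higher; Epor -0.25, SE 0.080, and Hba-a1 -0.08, SE 0.050) had list means of 7.29 to 7.41 in vimentin-deficient and 7.44 to 7.48 in wild-type cultures, and 0 markers of the neutrophil, fibroblast and erythroid lists passed in either fit. Of 10 macrophage markers 3 were higher and 7 lower with 6 arrays (median -0.12, and -0.14 without vimentin-deficient replicate 3), and in 3 all vimentin-deficient arrays lay below all wild-type arrays. Among the 10, 1 rose without that array, Cd14 (0.75, SE 0.14, with 6 arrays and 0.59, SE 0.078, without it), with list means of 11.60 to 11.72 in vimentin-deficient and 11.58 to 11.70 in wild-type cultures. The part of any other cell type in the members' values was not tested.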

How the data were processed

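RNA was measured on 6 Affymetrix arrays. The authors deposited log2 values, 1 per probe set and array. The summary and normalization steps are not stated in the labels or file headers used here. The values ran from 5.43 to 14.50, with array medians of 7.22 to 7.25, and were used as deposited. No depth exists for arrays, and 3 per genotype limits the precision. Groups and replicate numbers came from the sample titles.

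Of 45101 probe sets 64 controls were left out. Of the rest 34945 named 1 gene symbol, 932 several and 9160 none in the platform annotation, and 34741 of the first were matched to a gene table of GRCm38.p6 by Entrez ID, which served for names and neighbours only. Every non-control probe set was fitted with limma 3.58.1 (R 4.3.3; lmFit, eBayes with trend; no covariates), with Benjamini-Hochberg adjustment over all of them and a threshold of 0.05. SEs are limma's moderated ones. A gene in a list is its brightest probe set. The procedure was tested on simulated data. Alternatives covered left-out arrays, normalization, filter, unit of the test, variance model, array weights, the replicate number as a block and the threshold.

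The members and lists were chosen with earlier results of these data known. The rule for named genes was Vim, all members, up to 5 genes with the smallest p of each list (taken from the smallest p on), the 2 brightest of each marker list and the 5 nearest profiles; Irf1, H2-Eb1 and Cd3d were named after their values were seen. Giant interferon-inducible GTPases had no probe set with 1 symbol in their list. Gene symbols of the probe sets annotated to several related GTPases were named outside the rule for named genes. Promoter sequences are RefSeq's, compared by local alignment in Biopython 1.88.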

Additional observations from a re-analysis of the deposited data

How the results depend on the processing

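The direction of the 9 members held in all 189 values recomputed for single genes: all were above 0, 152 kept their side of the threshold and 37 moved past it, each time in a fit without vimentin-deficient replicate 3. The count of 11 probe sets past the threshold was 0 with 6 arrays and stayed 0 with quantile normalization, median centring, the filter at the 40th percentile, 1 probe set per gene, eBayes without trend, array quality weights and an adjusted p of 0.1. Leaving out single arrays gave counts of 0 to 4, the 4 without vimentin-deficient replicate 3. Of the alternatives chosen after seeing the data, the count without that array was also 4 with the filter, with 1 probe set per gene and with quantile normalization, and 2 to 7 when another array was left out as well. The whole array moved too: 533 of 45037 probe sets passed without vimentin-deficient replicate 3 alone, and 146 to 1934 without another array as well, 1934 without wild-type replicate 1 (7 members), 421 without wild-type replicate 2 (7), 224 and 293 without vimentin-deficient replicates 1 (5) and 2 (2), and 146 without wild-type replicate 3 (2). With 1 array left in a group, that array is assumed to vary like the other group. The median log2 fold change of the members ranged from 0.36 to 0.85 over all these settings, and was 0.49 without vimentin-deficient replicate 3 and 0.54 with array weights.

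Across probe sets, deviations from the group means correlated at 0.39, -0.11 and 0.03 for the same-numbered arrays of replicates 1, 2 and 3. Pairs with unlike numbers correlated at -0.38 to 0.29. Whether same-numbered arrays were handled together was not tested. With the replicate number as a block the count was 0, the median 0.72, and 0 of all 45037 probe sets passed, against 5 without the block.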

Other observations

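Another 3 probe sets were annotated to several related GTPase genes at once and were not assigned to a gene. These were 1449009_at (Tgtp1 and Tgtp2, IRG family), 1429184_at (Gvin1 and Gm4070, giant interferon-inducible GTPases) and 1421104_at (Gbp4 and Gbp8, GBP family). Probe set 1449009_at read 9.13, 9.41 and 10.26 in vimentin-deficient and 7.95, 8.05 and 8.17 in wild-type macrophages, with no overlap. With 6 arrays it differed by 1.54 (log2; SE 0.26; limma adjusted p = 0.390), and it rose by 1.21 (SE 0.098, limma adjusted p = 3.74e-05) without vimentin-deficient replicate 3. Probe set 1429184_at read 10.33, 10.24 and 11.59 in vimentin-deficient and 9.52, 9.89 and 9.58 in wild-type macrophages. With 6 arrays it differed by 1.06 (SE 0.34, limma adjusted p = 0.698), and without that array it rose by 0.62 (SE 0.11, limma adjusted p = 0.0138). Probe set 1421104_at was dim, with overlapping groups and a log2 fold change of 0.035 (SE 0.077).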
